A study of Oryza sativa with 9 samples.

Results

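Leaves of PB-treated (PBT) and GA-treated (GAT) rice seedlings were compared after 4 days under water, and 22946 of the 38652 entries of the expression table could be tested. An entry was kept if its mean was at least 0.5 FPKM over the 9 libraries, where FPKM is the number of fragments scaled by transcript length and by the number of mapped fragments. The 3 PBT and 3 GAT libraries carry the comparison, and the 3 control libraries are given beside them and add to the estimate of the spread. All seedlings were IR64, an *indica* variety that tolerates submergence poorly. At 20 days of age they were sprayed with 25 mL of GA at 100 mg/L (GAT), of PB at 200 mg/L (PBT) or of solvent alone (control). Complete submergence under 100 cm of water began 2 days later. The labels name ethanol as the control solvent, while the study's methods name methanol. GA and PB were given at different doses and have no matched dose here, and a variety other than IR64, a time other than day 4 and leaves that were not submerged were not analysed here. The study calls the libraries of a group biological triplicates without saying whether they came from separate pots or plants, so the p values measure the spread between these libraries.

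Gibberellins are diterpenoid hormones that drive stem and leaf elongation. They bind the receptor GID1, which then leads DELLA proteins, repressors such as SLR1 in rice, to be degraded. Paclobutrazol is a triazole growth retardant that blocks *ent*-kaurene oxidase, an early enzyme of gibberellin synthesis, so that shoots stay short. Elongation under water carries a leaf towards the air at the cost of stored carbohydrate, and a slow-growing rice seedling keeps that reserve for longer.

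The libraries of a group resembled each other more than those of the other treatment. Pearson's r of log2(FPKM + 1) over the entries was 0.867 to 0.892 within GAT, 0.885 to 0.894 within PBT and 0.826 to 0.849 between them. GAT replicate 1 had the most entries listed at 0, 17529, while the other 8 libraries had between 14322 and 15728. A 0 in the table may be a failed estimate, since 314 entries were listed at 0 in 1 GAT or PBT library and above 10 FPKM in both others of that group, so an entry is described as listed at 0 and not as silent. In 4 of the 9 files deposited for single libraries the values are those of another library. The file of GAT replicate 1 repeats PBT replicate 3, those of GAT replicates 2 and 3 repeat GAT replicates 1 and 2, and that of PBT replicate 3 repeats PBT replicate 2. The columns of the series table, which carry the library names, were used throughout. Leaf markers were high in every library, with *RBCS*, the small subunit of Rubisco (LOC_Os12g17600), at 5172, 5003 and 5134 FPKM in GAT and 6639, 7046 and 6949.9 in PBT. Of the KNOX genes that mark the shoot meristem, OSH15 and OSH71 were under the filter and OSH1 and OSH6 had no entry. In bulk leaves, fewer cells of a type and less RNA per cell cannot be told apart.

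In PB-treated leaves 8 of 37 class III peroxidases of the cell wall were higher than in GA-treated leaves and 3 were lower. Single genes of defence and signalling that were higher include a thaumatin (LOC_Os12g43390), a lipoxygenase (LOC_Os04g37430) and the MAP kinase *MPK3*. Among those lower were *SD-1* and *SLR1* of the gibberellin pathway, the pyruvate decarboxylase *PDC2*, an aldolase (LOC_Os01g67860) and the starvation amylase *OsAmy3D*. In PBT/GAT, 1446 entries were DEGs, 6.30% of those tested, 799 of them higher (3.48%) and 647 lower (2.82%) in PBT. A DEG had an adjusted p under 0.05 and differed by at least 1 on the log2(FPKM + 1) scale, a scale that understates the change of entries with low FPKM. The median difference was 1.59 in size among the higher DEGs and 1.51 among the lower ones. A difference of at least 2 was reached by 236 higher and 175 lower DEGs, and one of at least 3 by 57 and 49. Every library of the lower group was listed at 0 for 72 of the higher and 53 of the lower DEGs. Over all entries tested the median difference was -0.07, and the PBT and GAT libraries did not overlap for 30.0%, with PBT above for 12.6% and below for 17.4%. Without the fold limit 9.37% passed, and 23.3% had an unadjusted p under 0.05. With 1 library left out the count ranged from 1063, without PBT replicate 2, to 1386, and without PBT replicate 3, whose values stand in the file of GAT replicate 1, it was 1114. A limit of 0.01 on the adjusted p left 749 DEGs.

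**Figure D1:**
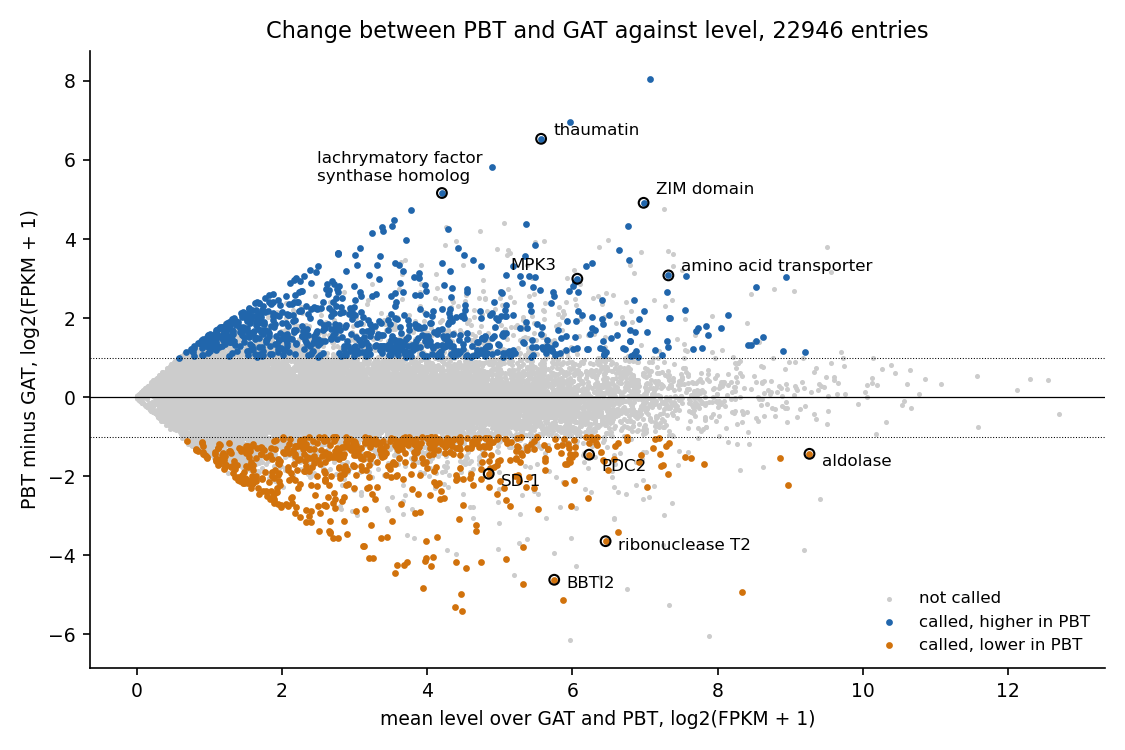
Difference between PBT and GAT, in log2(FPKM + 1), against the mean level over both groups for the 22946 entries tested (each point is 1 entry, dotted lines mark a difference of 1 in size). The 799 DEGs higher in PBT lie above the upper dotted line and the 647 lower ones below the other, and the circled entries are described in the text.

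The entries that rose most from GAT to PBT include genes described for defence, calcium sensing and stress signalling. Thaumatins are pathogenesis-related proteins of the PR-5 family, and LOC_Os12g43390, described as one, was at 0, 0.0173 and 0.0177 FPKM in GAT, at 87.9, 102 and 89.5 in PBT and at 5.596, 2.599 and 2.78 in the control. All 3 PBT libraries stood far above the other 6, and PBT was higher than GAT by 6.54 ± 0.25 (log2, SE; adjusted p = 4.63e-06). LOC_Os01g10210, a homolog of the onion lachrymatory factor synthase, was listed at 0 in all 3 GAT libraries and stood at 34.03, 33.7 and 36.97 FPKM in PBT and 42.5, 47.7 and 37.8 in the control. The listed values set GAT apart from both other groups (adjusted p = 2.19e-06 against PBT), and no fold is given against a group listed at 0. A pair of dehydration stress-induced proteins followed, LOC_Os10g21790 and LOC_Os10g21670. The first was listed at 0 in all 3 GAT libraries and measured 26.8, 25.9 and 23.6 FPKM in PBT, with 1.98, 1.03 and 1.79 in the control (adjusted p = 9.2e-06). The second measured 0, 0 and 0.271 FPKM in GAT, 22.2, 20.1 and 20.1 in PBT and 1.11, 2.04 and 2.48 in the control, a rise of 4.33 ± 0.24 (adjusted p = 2.96e-05). In both the control lay close to GAT.

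MAP kinase cascades pass signals from receptors through a MAP3K to a MAP kinase. The MAP3K gene LOC_Os01g50420 measured 3.15, 7.06 and 4.78 FPKM in GAT, 83.5, 80.5 and 82.96 in PBT and 86.9, 77.1 and 77.4 in the control, so that PBT and the control overlapped and GAT lay below both (difference 3.85 ± 0.22, adjusted p = 3.49e-05). A neighbour in locus number, the MAP3K gene LOC_Os01g50410, gave 18.2, 11.2 and 14.7 FPKM in GAT and 96.7, 105 and 70.2 in PBT (2.55 ± 0.22, adjusted p = 0.000223). *MPK3* (LOC_Os03g17700), a MAP kinase that acts in stress and defence responses, gave 12.9, 19.01 and 10.97 FPKM in GAT, 114, 123 and 117 in PBT and 80.6, 72.7 and 84.1 in the control. It rose by 2.995 ± 0.19 (adjusted p = 5.01e-05), and here the PBT libraries also exceeded every control library. In the KEGG term for MAPK signaling, 2 of 44 entries were higher and 2 lower in PBT, 9.09% against 6.30% of all entries. Named genes of calmodulin-like calcium sensors were OsCML21 and *MSR2*, and other genes of that kind were not counted as a list. OsCML21 (LOC_Os05g24780) was listed at 0 in all 3 GAT libraries against 22.5, 21.3 and 19.99 FPKM in PBT and 0, 0 and 3.57 in the control (adjusted p = 0.00139). *MSR2* (OsCML31, LOC_Os01g72530) was at 10.4, 16.9 and 18.4 FPKM in GAT, 49.3, 57.6 and 39.2 in PBT and 111, 96.8 and 91.5 in the control, a rise of 1.63 ± 0.23 (adjusted p = 0.00307), with PBT between the other groups.

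Among the other leading rises, the VQ domain gene LOC_Os06g41450, of a family that binds WRKY factors in Arabidopsis, was listed at 0 in all 3 GAT libraries and measured 19.3, 14.7 and 16.8 FPKM in PBT and 14.2, 15.8 and 19.7 in the control (adjusted p = 1.01e-05). OsSCP31 (LOC_Os05g50600), a serine carboxypeptidase homolog, was also listed at 0 in all 3 GAT libraries, with 17.5, 17.9 and 21.3 FPKM in PBT and 12.4, 10.05 and 13.8 in the control (adjusted p = 8.19e-06). The F-box gene OsFBX51 (LOC_Os02g33240), of a family that picks targets for ubiquitination, showed the same pattern, 8.84, 16.1 and 10.2 FPKM in PBT and 5.02, 9.898 and 8.33 in the control against 0 in all 3 GAT libraries (adjusted p = 0.000156). In all 3 genes both the control and PBT stood well above GAT. The long cell-linked locus LOC_Os03g19070 was at 4.76, 5.796 and 0 FPKM in GAT, 40.2, 35.2 and 44.8 in PBT and 14.3, 13.3 and 20.9 in the control (3.59 ± 0.64, adjusted p = 0.00975). Of the described entries, the largest fitted change was that of LOC_Os02g47510, a 9-cis-epoxycarotenoid dioxygenase, the enzyme that limits abscisic acid synthesis. It was listed at 0 in all 3 GAT libraries and at 127, 127 and 116 FPKM in PBT, but its control libraries were at 0, 0 and 205, so single libraries of 1 group differ by as much as the treatments do. Its call (adjusted p = 0.0433) was lost without control replicates 1 or 2, GAT replicates 1, 2 or 3 or PBT replicates 1, 2 or 3 (adjusted p up to 0.123). Another 2 entries carry the same locus name, and their sum with it gave 3.07 (adjusted p = 0.0875).

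**Figure D2:**
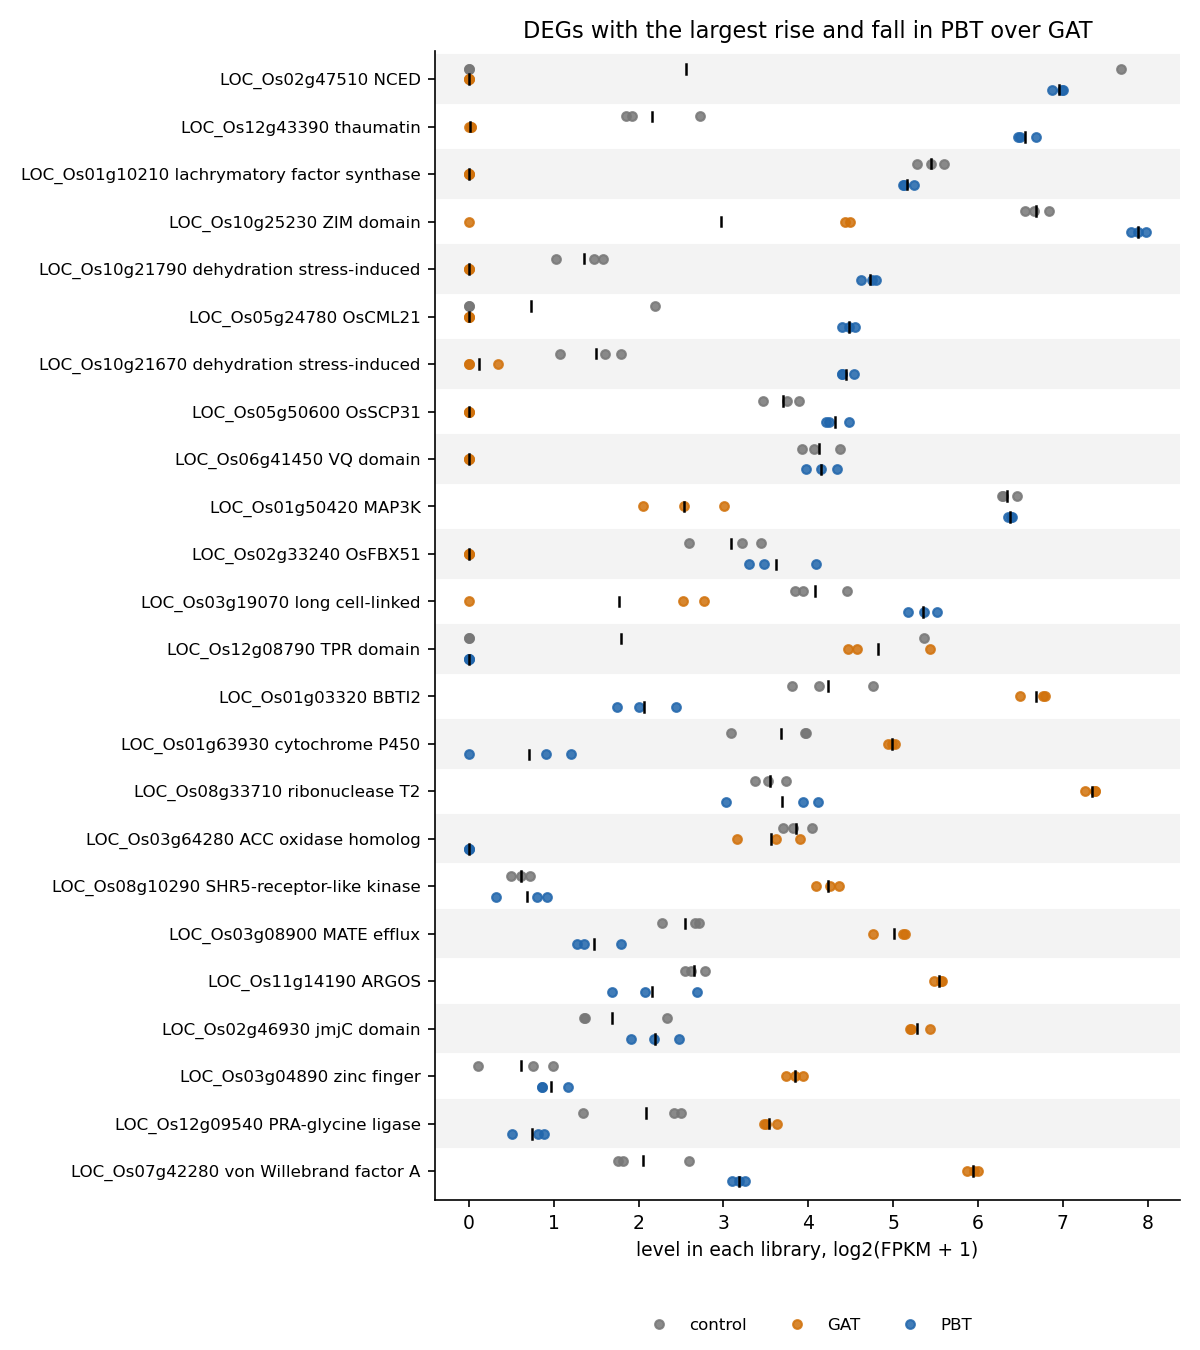
Level of the 12 named entries that rose most and the 12 that fell most from GAT to PBT in each library, in log2(FPKM + 1) (points are libraries, black bars the mean of a group of 3). GAT lies at 0 for several of the entries higher in PBT and above both other groups for most of the entries lower in PBT.

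The entries that fell most from GAT to PBT include a protease inhibitor, a ribonuclease, a growth-related gene and a MATE transporter. BBTI2 (LOC_Os01g03320), a Bowman-Birk trypsin inhibitor, was at 108, 89.4 and 109.8 FPKM in GAT, 2.35, 4.44 and 3.02 in PBT and 13.03, 26.1 and 16.4 in the control. PBT lay below and GAT above the control in every library, and the difference was -4.62 ± 0.27 (adjusted p = 4.08e-05). The ribonuclease T2 gene LOC_Os08g33710, of a family that degrades RNA, measured 165, 166 and 152 FPKM in GAT, 16.4, 14.4 and 7.15 in PBT and 10.5, 9.38 and 12.3 in the control (-3.65 ± 0.27, adjusted p = 0.000103). *ARGOS* enlarges organs in Arabidopsis, and the rice gene described as ARGOS (LOC_Os11g14190) measured 46.5, 43.6 and 46.2 FPKM in GAT, 5.47, 3.22 and 2.21 in PBT and 5.87, 5.15 and 4.83 in the control (-3.39 ± 0.25, adjusted p = 0.000102). In both of these genes GAT alone stood high. The MATE efflux transporter LOC_Os03g08900 was at 34.3, 33.7 and 26.04 FPKM in GAT, 1.56, 1.41 and 2.45 in PBT and 3.85, 5.32 and 5.55 in the control (-3.53 ± 0.22, adjusted p = 5.01e-05). The SHR5-receptor-like kinase LOC_Os08g10290 stayed under 1 FPKM in all PBT and control libraries and reached 18.1, 16.05 and 19.6 FPKM in GAT (-3.56 ± 0.23, adjusted p = 5.42e-05).

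A gene with a jmjC domain, the catalytic fold of many histone demethylases (LOC_Os02g46930), was at 35.6, 42.2 and 36.1 FPKM in GAT, 3.53, 2.76 and 4.58 in PBT and 1.57, 4.04 and 1.58 in the control (-3.09 ± 0.29, adjusted p = 0.000406). The von Willebrand factor type A gene LOC_Os07g42280 measured 63.1, 57.4 and 60.99 FPKM in GAT, 7.58, 8.12 and 8.501 in PBT and 2.39, 2.52 and 5.02 in the control (-2.76 ± 0.23, adjusted p = 0.000186). The zinc finger gene LOC_Os03g04890 measured 14.3, 12.3 and 13.4 FPKM in GAT against 0.8197, 0.811 and 1.24 in PBT (-2.88 ± 0.27, adjusted p = 0.000358). In these 3 genes too the control lay near PBT. A cytochrome P450 (LOC_Os01g63930) and a ligase of purine synthesis (LOC_Os12g09540, phosphoribosylamine-glycine ligase) followed another order, with the control between the treatments. The P450 was at 30.6, 31.6 and 29.8 FPKM in GAT, 0, 1.3004 and 0.8796 in PBT and 14.7, 14.5 and 7.54 in the control (-4.28 ± 0.35, adjusted p = 0.000166), and the ligase fell by 2.80 (adjusted p = 0.00109). LOC_Os03g64280, a homolog of the ethylene-forming ACC oxidase, was the reverse of the GAT-specific zeros, at 13.9, 11.3 and 7.93 FPKM in GAT and 15.5, 13.1 and 12.02 in the control but listed at 0 in all 3 PBT libraries (adjusted p = 5.42e-05). The TPR domain gene LOC_Os12g08790 was listed at 0 in all 3 PBT libraries against 42.3, 21.2 and 22.8 FPKM in GAT, with 0, 0 and 40.2 in the control. Its call (adjusted p = 0.0473) was lost without control replicates 1 or 2, GAT replicates 1, 2 or 3 or PBT replicates 1, 2 or 3 (adjusted p up to 0.147).

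Across the DEGs the mean of the control fell on either side of the treatments. Among the 799 higher in PBT, the control lay between the group means and nearer PBT in 296 or nearer GAT in 222, above both in 172 and below both in 109. Among the 647 lower in PBT, it lay between them and nearer PBT in 302 or nearer GAT in 105, below both in 223 and above both in 17. These positions are given as a description, since the control libraries took part in the fit and the filter.

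Gibberellin genes moved in both directions. The pathway runs from CPS and KS, which form *ent*-kaurene, through the oxidases KO and KAO to the GA 20-oxidases and GA 3-oxidases that make active gibberellin, while GA 2-oxidases and EUI1 inactivate it. Of 7 synthesis genes tested, 2 were higher and 2 lower in PBT, of 7 inactivation genes 1 was lower, and of 4 signalling genes 1 was lower, where 6.30% of all entries were called. *SD-1* (LOC_Os01g66100), a gene that encodes a GA 20-oxidase, measured 43.2, 47.6 and 42.6 FPKM in GAT, 13.8, 12.2 and 7.51 in PBT and 8.49, 7.795 and 2.75 in the control. Every GAT library exceeded the other 6, and PBT was lower by -1.94 ± 0.36 (adjusted p = 0.0122). *GA20ox4* (LOC_Os05g34854) followed with 10.3, 4.67 and 9.01 FPKM in GAT, 1.41, 0.888 and 1.25 in PBT and 2.39, 3.23 and 2.64 in the control (-1.99 ± 0.29, adjusted p = 0.00358), and here PBT was also below every control library. *GA20ox1* (LOC_Os03g63970) measured 0.0155, 0 and 0.233 FPKM in GAT and 0.554, 0.231 and 1.301 in PBT and did not pass (adjusted p = 0.449).

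The earlier oxidases were higher in PBT. *KAO* (LOC_Os06g02019) was at 0.231, 2.56 and 0.412 FPKM in GAT, 9.08, 8.63 and 5.95 in PBT and 4.79, 4.94 and 2.24 in the control, a rise of 2.26 ± 0.43 (adjusted p = 0.0138). *KO2* (LOC_Os06g37364), which encodes the class of enzyme that PB blocks, was at 5.59, 10.7 and 11.2 FPKM in GAT, 28.4, 23.4 and 16.3 in PBT and 24.4, 17.4 and 15.8 in the control (1.24 ± 0.30, adjusted p = 0.0388). Both groups were separate in these genes, yet the calls were near the limit. That of *KAO* was lost without GAT replicates 1 or 3 or PBT replicates 1 or 2 (adjusted p up to 0.0567). That of *KO2* was lost without control replicates 2 or 3, GAT replicates 1, 2 or 3 or PBT replicates 1 or 2 (adjusted p up to 0.117), and its sum with another entry of the same locus name also missed the limit. *CPS1* (LOC_Os02g17780) and *KS1* (LOC_Os04g52230) overlapped between the groups (differences 0.41 ± 0.32 and -0.16 ± 0.21, adjusted p = 0.504 and 0.711).

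All 7 inactivation genes had a negative difference, with a median of -0.81 against -0.07 over all entries. In 4 of them every PBT library was below every GAT library, against 17.4% of all entries. *GA2ox3* (LOC_Os01g55240) measured 49.9, 43.02 and 42.03 FPKM in GAT, 19.5, 21.96 and 5.93 in PBT and 15.6, 9.58 and 11.99 in the control (-1.63 ± 0.42, adjusted p = 0.046). Its call was lost without control replicates 1, 2 or 3, GAT replicates 1, 2 or 3 or PBT replicate 1 (adjusted p up to 0.133) and under quantile normalization or median scaling. *GA2ox7* (LOC_Os01g11150) was at 12.3, 6.31 and 10.3 FPKM in GAT, 2.54, 2.19 and 5.85 in PBT and 1.49, 1.14 and 1.25 in the control, and narrowly missed the limit (-1.27 ± 0.34, adjusted p = 0.0519). It passed without GAT replicate 2 or PBT replicate 3. *GA2ox4* (LOC_Os05g43880) and *GA2ox6* (LOC_Os04g44150) did not overlap between the groups but missed the limit (differences -1.02 ± 0.35 and -0.81 ± 0.37, adjusted p = 0.118 and 0.236), while *GA2ox8* (LOC_Os05g48700), *GA2ox9* (LOC_Os02g41954) and *EUI1* (LOC_Os05g40384) overlapped (-0.71 ± 0.34, -0.38 ± 0.31 and -0.25 ± 0.41, adjusted p = 0.25, 0.526 and 0.778). *GA3ox2*, *GA2ox1* and *GA2ox5* were under the filter, and *GA3ox1*, *GA20ox3* and *GA2ox2* were not analysed here.

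*SLR1* (LOC_Os03g49990), the DELLA repressor of gibberellin responses, was at 94.8, 79.98 and 86.2 FPKM in GAT, 29.5, 37.7 and 37.8 in PBT and 52.9, 55.7 and 49.2 in the control. The control libraries lay between the treatments without overlap, and PBT was lower than GAT by -1.29 ± 0.14 (adjusted p = 0.000834). The receptor *GID1* (LOC_Os05g33730) was at 100.3, 11.5 and 91.6 FPKM in GAT and 93.8, 102 and 92.8 in PBT, with GAT replicate 2 far below the others (0.99 ± 0.68, adjusted p = 0.45). *SLRL1* (LOC_Os01g45860) and *GAMYB* (LOC_Os01g59660), which activates gibberellin-induced genes, overlapped between the groups (-0.38 ± 0.56 and -0.22 ± 0.31, adjusted p = 0.741 and 0.727). Of 3 GASA genes, which encode small cysteine-rich peptides, GASR7 (LOC_Os06g15620) passed, with 0, 0 and 0.596 FPKM in GAT, 5.08, 4.24 and 5.81 in PBT and 1.35, 0.948 and 3.1998 in the control (2.36 ± 0.35, adjusted p = 0.00382).

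**Figure D3:**
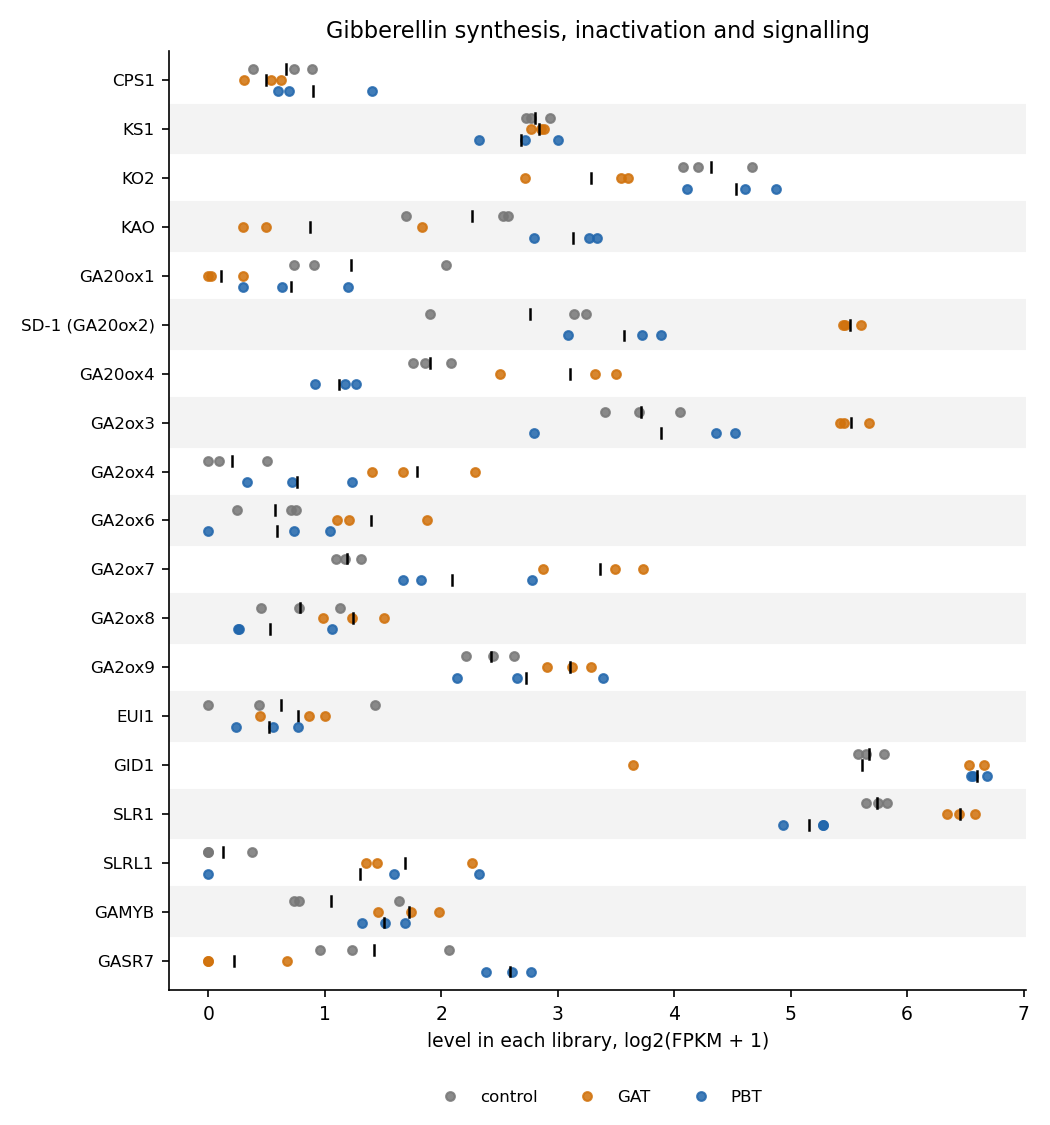
Level of the gibberellin synthesis genes (*CPS1* to *GA20ox4*), inactivation genes (*GA2ox3* to *EUI1*) and signalling genes (*GID1* to *GASR7*) in each library, in log2(FPKM + 1) (points are libraries, black bars the mean of a group of 3). GAT stands above PBT in *SD-1*, *GA20ox4*, *GA2ox3* and *SLR1* and below it in *KAO*, *KO2* and *GASR7*.

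Genes of other hormones also differed. In the jasmonate pathway, lipoxygenases start the synthesis and JAZ proteins, which carry a ZIM domain, repress the response. Of 7 lipoxygenases 2 rose and none fell, 28.6% against 6.30% of all entries. LOC_Os04g37430 was at 9.96, 11.8 and 8.95 FPKM in GAT, 82.3, 72.1 and 72.6 in PBT and 28.2, 24.9 and 20.1 in the control (2.78 ± 0.17, adjusted p = 4.62e-05), and LOC_Os03g49350 rose by 1.48 ± 0.27 (adjusted p = 0.0104). In both, every PBT library was also above every control library. The ZIM domain gene LOC_Os10g25230 measured 0, 20.7 and 21.5 FPKM in GAT, 251, 237 and 222 in PBT and 100.1, 113 and 92.7 in the control. Its rise of 4.92 ± 1.02 includes the 0 of GAT replicate 1, and the call (adjusted p = 0.0198) was lost without PBT replicates 1, 2 or 3 (adjusted p up to 0.0693). With that 0 treated as missing its adjusted p was 6.55e-06.

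ACC synthase and ACC oxidase make ethylene, the gas that builds up in submerged tissue. Of 13 entries described as either, 1 was higher and 1 lower in PBT (15.4% against 6.30%), the lower one being LOC_Os03g64280 above. Their median difference was -0.08. Every PBT library was above every GAT library in 2 and below in 5, against 12.6% and 17.4% of all entries. *OsACS1* (LOC_Os03g51740), which the table describes otherwise, was at 0, 0.185 and 0.617 FPKM in GAT, 4.398, 5.44 and 3.78 in PBT and 3.45, 2.16 and 3.61 in the control (2.15 ± 0.27, adjusted p = 0.00199). The higher entry of the list, LOC_Os05g05670, an ACC oxidase, measured 1.46, 1.34 and 1.69 FPKM in GAT and 5.53, 3.86 and 7.58 in PBT (1.38 ± 0.26, adjusted p = 0.0138). *OsACO7* (LOC_Os01g39860) measured 6.59, 10.8 and 9.52 FPKM in GAT and 5.58, 5.42 and 4.97 in PBT and did not pass (-0.63 ± 0.24, adjusted p = 0.151). *OsEIL2* (LOC_Os07g48630), of the EIN3-like factors that act in ethylene signalling, differed by 0.39 ± 0.08 (adjusted p = 0.02), under the fold limit. *EATB* (LOC_Os09g28440), an ERF factor known to repress internode elongation in rice, was at 1.84, 1.44 and 1.199 FPKM in GAT, 42.8, 0 and 55.6 in PBT and 43.2, 36.4 and 39.99 in the control. PBT replicates 1 and 3 were at the level of the control, but PBT replicate 2 was listed at 0, and the difference of 2.45 ± 1.30 did not pass (adjusted p = 0.307). With that 0 treated as missing the adjusted p was 1.88e-05, and without PBT replicate 2 the difference was 4.33 and passed.

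For abscisic acid, *OsNCED3* (LOC_Os03g44380) measured 23.2, 16.5 and 19.9 FPKM in GAT, 0, 11.7 and 12.8 in PBT and 5.35, 2.02 and 1.66 in the control, again with a 0 in 1 library (-1.88 ± 0.91, adjusted p = 0.261). *DSM2* (LOC_Os03g03370), a carotene hydroxylase that supplies precursors of abscisic acid, was at 86.6, 60.7 and 56.1 FPKM in GAT, 24.8, 30.3 and 29.7 in PBT and 15.5, 10.8 and 7.99 in the control (-1.21 ± 0.25, adjusted p = 0.0195). It was lower in PBT than in GAT, and the call was lost without GAT replicate 1 or PBT replicates 1, 2 or 3 (adjusted p up to 0.0697). For brassinosteroids, the synthesis gene *DWARF4* (LOC_Os03g12660) was at 6.29, 5.44 and 2.76 FPKM in GAT, 0.221, 1.79 and 0.655 in PBT and 0.299, 0.991 and 0.964 in the control (-1.66 ± 0.39, adjusted p = 0.0345), a call lost without control replicates 2 or 3, GAT replicates 1 or 2 or PBT replicates 1 or 3 (adjusted p up to 0.103). *SERK2* (LOC_Os04g38480), a co-receptor of the BAK1 type, was at 101, 103 and 99.8 FPKM in GAT and 62.03, 51.7 and 52.7 in PBT, a difference of -0.86 ± 0.12 (adjusted p = 0.00317) that stayed under the fold limit.

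Cytokinin signals induce type-A response regulators, which feed back on the pathway. OsRR10 (LOC_Os11g04720) was at 3.64, 3.25 and 2.72 FPKM in GAT, 12.2, 12.03 and 8.91 in PBT and 6.58, 4.39 and 5.29 in the control (1.51 ± 0.21, adjusted p = 0.00309). Of 8 entries described as response regulators 1 was higher and 0 lower in PBT, 12.5% against 6.30% of all entries. A cytokinin dehydrogenase, the enzyme that breaks cytokinin down (LOC_Os08g35860), measured 19.3, 25.6 and 23.9 FPKM in GAT, 4.91, 5.62 and 4.57 in PBT and 20.97, 25.7 and 7.70 in the control (-1.98 ± 0.38, adjusted p = 0.0132). Its call was lost without GAT replicate 2 or PBT replicate 3 (adjusted p up to 0.0538). Other cytokinin dehydrogenases were not counted as a list. Of 27 auxin response genes 2 rose and 2 fell, 14.8% against 6.30% of all entries. Of these auxin genes 1 in each direction stayed called in most fits that left out 1 library. *ARF8* (LOC_Os02g41800), an auxin response factor, was at 14.6, 8.32 and 9.06 FPKM in GAT, 1.53, 3.78 and 1.57 in PBT and 1.47, 0.8304 and 1.63 in the control (-1.85 ± 0.33, adjusted p = 0.00981). LOC_Os01g36580, described as the auxin-induced protein 5NG4, was higher in PBT by 2.23 ± 0.26 (adjusted p = 0.00132).

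The cell wall lists were called mostly higher in PBT. By GO term, cellular cell wall organization had 17 higher and 4 lower of 131 entries (16.0%). Structural constituent of cell wall was split, with 4 higher and 5 lower of 127 (7.09% against 6.30% of all entries). Class III peroxidases are secreted enzymes that use hydrogen peroxide to cross-link lignin and other wall polymers or to loosen them, and of 37 tested 8 were higher and 3 lower in PBT. Their share called was 29.7% against 6.30% of all entries, and their median difference was 0.52 against -0.07. In 21 of the 37 every PBT library was above every GAT library, against 12.6% of all entries. LOC_Os02g14440 was at 60.002, 67.2 and 58.9 FPKM in GAT, 206, 198 and 187 in PBT and 128, 118 and 114 in the control (1.65 ± 0.10, adjusted p = 5.01e-05), so that the control lay between the treatments. LOC_Os10g02040 gave 56.1, 49.4 and 39.6 FPKM in GAT and 163, 149 and 125 in PBT (1.58 ± 0.15, adjusted p = 0.000508). LOC_Os01g73200 went the other way, at 27.4, 34.7 and 34.8 FPKM in GAT, 11.9, 13.5 and 12.1 in PBT and 4.598, 3.65 and 4.83 in the control (-1.297 ± 0.17, adjusted p = 0.0022). The summed level of the 37 peroxidases ran from 582 to 631 FPKM in GAT, from 995 to 1088 in PBT and from 810.3 to 831 in the control. The 8 higher and 3 lower peroxidase DEGs became 8 to 10 and 2 to 3 with 1 library left out.

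The peroxidases also dominated the phenylpropanoid pathway as annotated, in which 12 of 95 entries were higher and 4 lower, 11 of these 16 being peroxidases. Phenylalanine ammonia-lyase (LOC_Os04g43800), the entry enzyme of the pathway, measured 2.1004, 1.08 and 0.406 FPKM in GAT, 6.07, 5.17 and 6.18 in PBT and 5.09, 3.93 and 3.51 in the control (1.704 ± 0.30, adjusted p = 0.00929). LOC_Os03g08624, described as a dihydroflavonol reductase, was at 6.696, 6.16 and 5.22 FPKM in GAT and 23.6, 22.8 and 28.1 in PBT (1.88 ± 0.21, adjusted p = 0.000972). Both were higher in PBT, while a P450 assigned to the same pathway (LOC_Os05g25640) fell by 1.22 (adjusted p = 0.00154).

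Expansins loosen the wall during growth. Of 13 tested 3 were higher in PBT and 0 lower (23.1% against 6.30%), a median difference of 0.20. Every PBT library was above every GAT library in 5 expansins and below in 3, against 12.6% and 17.4% of all entries. LOC_Os10g40730 was at 0.983, 2.31 and 0.725 FPKM in GAT, 16.4, 15.9 and 18.6 in PBT and 10.3, 7.64 and 8.69 in the control (2.997 ± 0.26, adjusted p = 0.000263), with every PBT library above the other 6. The count of higher expansins was 1 without GAT replicates 2 or 3 or PBT replicate 1, and that of lower ones 1 without control replicates 1 or 3. Glycosyl hydrolases of family 16, which cut and rejoin xyloglucan or degrade glucans, gave 2 higher and 0 lower of 11 (18.2% against 6.30%). The higher ones were 1 without GAT replicate 3 or PBT replicate 2. LOC_Os06g48200 led in level, with 94.9, 91.2 and 87.2 FPKM in GAT, 264, 162 and 254 in PBT and 178, 162 and 177 in the control (1.28 ± 0.18, adjusted p = 0.00307). In cellulose synthase genes and their relatives 2 of 10 rose, namely CSLC7 (LOC_Os05g43530) by 1.697 ± 0.30 (adjusted p = 0.00936) and CSLF6 (LOC_Os08g06380), which makes mixed-linkage glucan, by 1.05 ± 0.19 (adjusted p = 0.0109). The call of CSLF6 was lost without GAT replicate 3, where the difference was 0.99.

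Pectin enzymes and their inhibitors gave 5 higher and 0 lower of 33, 15.2% against 6.30% of all entries. The pectinesterase LOC_Os09g39760 was at 26.7, 18.4 and 17.6 FPKM in GAT, 74.2, 70.8 and 72.97 in PBT and 48.2, 38.3 and 42.8 in the control (1.78 ± 0.17, adjusted p = 0.000518). A polygalacturonase inhibitor (LOC_Os07g38130), of a family that protects pectin from fungal enzymes, measured 0, 0 and 2.81 FPKM in GAT and 17.5, 17.6 and 17.3 in PBT (3.57 ± 0.50, adjusted p = 0.0032). Enzymes and inhibitors therefore rose side by side, and the count was 3 without GAT replicate 2 or PBT replicates 1 or 2 and 2 without PBT replicate 3. Callose and other glucans are cut by glycosyl hydrolases of family 17, and LOC_Os05g31140 was at 35.9, 30.8 and 33.1 FPKM in GAT, 132, 136 and 135 in PBT and 217, 216 and 203 in the control (1.98 ± 0.10, adjusted p = 1.82e-05). Members of that family diverged, since LOC_Os01g71340 was at 61.4, 45.8 and 46.8 FPKM in GAT and 9.16, 12.1 and 11.5 in PBT (-2.13 ± 0.19, adjusted p = 0.000295).

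**Figure D4:**
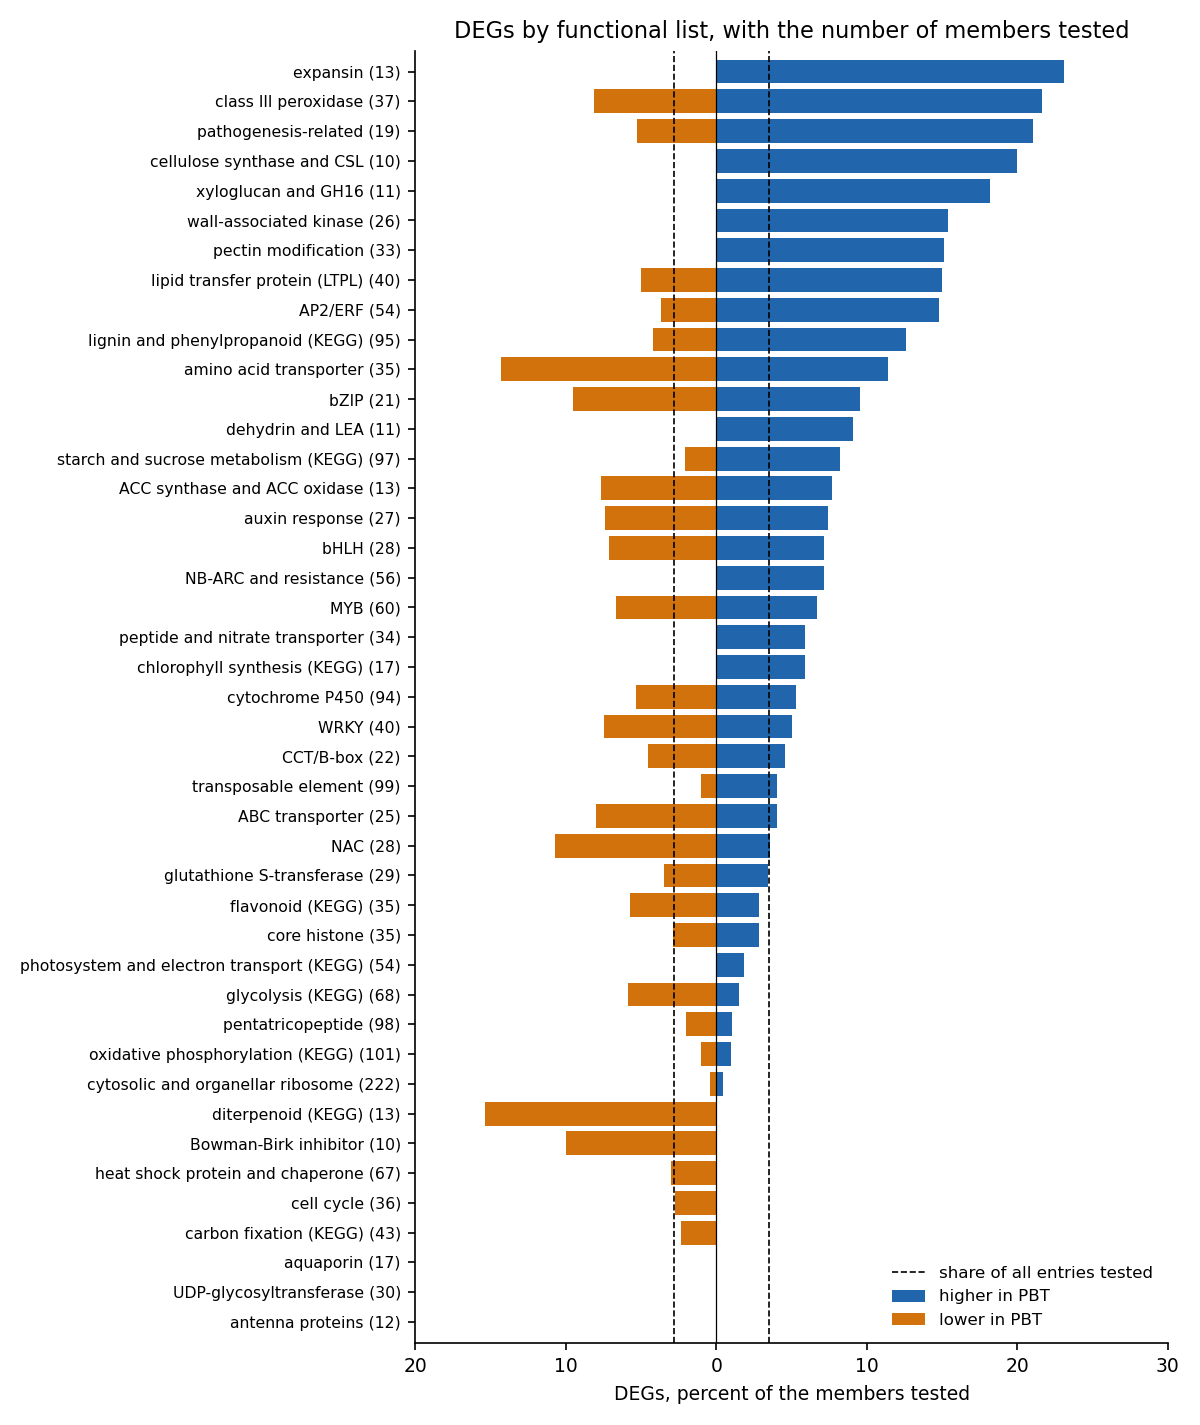
Share of the tested members of each functional list that were DEGs, higher in PBT to the right and lower in PBT to the left, in percent (lists with at least 10 members tested, whose number stands in brackets). Dashed lines mark the shares over all entries, 3.48% higher and 2.82% lower. Expansins, peroxidases and pathogenesis-related genes have the longest bars to the right, and the 12 antenna protein genes have no bar.

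Pathogenesis-related genes were called at 26.3%, against 6.30% of all entries. They had a median difference of 0.78, with 4 of 19 higher and 1 lower in PBT. Besides the thaumatin LOC_Os12g43390, 3 of these were Bet v I proteins of the PR-10 family with neighbouring locus numbers. LOC_Os12g36830 measured 15.1, 12.1 and 17.5 FPKM in GAT, 109.96, 44.9 and 109 in PBT and 16.995, 13.9 and 9.09 in the control (2.39 ± 0.37, adjusted p = 0.0049). PBT alone stood high in that gene. LOC_Os12g36850 and LOC_Os12g36880 rose by 2.09 ± 0.49 and 1.06 ± 0.23 (adjusted p = 0.0323 and 0.0256), and 2 of the 4 higher genes remained called without PBT replicate 1, 2 or 3. A further Bet v I gene, LOC_Os03g18850, went the other way, 11.3, 9.98 and 17.4 FPKM in GAT and 2.24, 5.57 and 3.38 in PBT (-1.58 ± 0.31, adjusted p = 0.0158), a call lost without GAT replicate 3 or PBT replicates 1 or 3 (adjusted p up to 0.0582).

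Several kinds of gene encode receptors for pathogens or wall damage. Of 56 NB-ARC and other resistance genes, which encode intracellular immune receptors, 4 rose and 0 fell, a share of 7.14% against 6.30% of all entries, with a median of -0.03. LOC_Os04g43440 was at 2.797, 2.79 and 1.41 FPKM in GAT and 11.7, 10.9 and 8.44 in PBT (1.78 ± 0.24, adjusted p = 0.00234), and the count of 4 was 2 without GAT replicates 2 or 3 or PBT replicates 1, 2 or 3. Wall-associated kinases, which bind pectin, gave 4 higher and 0 lower of 26, 15.4% against 6.30% of all entries. The higher ones were 2 without GAT replicates 2 or 3 or PBT replicates 1, 2 or 3. OsWAK111 (LOC_Os10g10030) was at 2.44, 1.14 and 2.12 FPKM in PBT and listed at 0 in all GAT and control libraries (adjusted p = 0.0143). The gene described as the receptor kinase FERONIA (LOC_Os04g49690), which in Arabidopsis senses the state of the wall, measured 18.6, 15.5 and 22.99 FPKM in GAT, 64.3, 73.2 and 74.9 in PBT and 40.5, 45.9 and 39.5 in the control (1.86 ± 0.16, adjusted p = 0.000277). *OsNPR1* (LOC_Os01g09800), a regulator of salicylic acid responses, was at 29.9, 26.3 and 23.5 FPKM in GAT and 18.4, 21.5 and 8.21 in PBT and did not pass (-0.79 ± 0.33, adjusted p = 0.189).

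Lipid transfer proteins of the LTPL type, small secreted proteins of the surface layers, gave 6 higher and 2 lower of 40. LTPL104 (LOC_Os05g06780) was at 76.7, 88.3 and 91.8 FPKM in GAT, 224, 233 and 231 in PBT and 154, 118 and 133 in the control (1.42 ± 0.12, adjusted p = 0.000277). LTPL116 (LOC_Os03g01320) measured 7.88, 12.3 and 10.9 FPKM in GAT and 49.5, 60.6 and 56.4 in PBT (2.33 ± 0.27, adjusted p = 0.00126). With 1 library left out 5 or 6 stayed higher, whereas the 2 lower ones were 0 without GAT replicate 2 or PBT replicates 1 or 2 and 1 without PBT replicate 3. For detoxification, a glutathione S-transferase (LOC_Os07g28480) rose from 13.1, 15.9 and 11.1 FPKM in GAT to 73.6, 68.4 and 69.5 in PBT (2.33 ± 0.15, adjusted p = 5.79e-05). Of the 29 genes of that class 1 rose and 1 fell, 6.90% against 6.30% of all entries, and their median was 0.00. Cytochromes P450 were split evenly, 5 higher and 5 lower of 94, 10.6% against 6.30% of all entries. The higher ones were 3 without GAT replicate 2 or PBT replicates 1 or 2 and 2 without PBT replicate 3.

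The antenna genes that passed the limit on p differed by less than the fold limit. None of the 12 genes of chlorophyll-binding antenna proteins was a DEG in the limma fit. An adjusted p under 0.05 was reached by 6, and the same number had an unadjusted p under 0.05. In 6 every PBT library was above every GAT library, against 12.6% of all entries. The median difference of the 12 was 0.42 as deposited, 0.27 after quantile normalization and 0.49 after median scaling. The antenna gene LOC_Os09g17740 was at 1074, 1096 and 1145 FPKM in GAT, 1650.5, 1753 and 1639.9 in PBT and 2828, 2858 and 2786 in the control (0.605 ± 0.06, adjusted p = 0.000406). LOC_Os11g13890 had the widest gap of the 6, 425, 352 and 356 FPKM in GAT and 664, 710.4 and 713 in PBT (0.89 ± 0.13, adjusted p = 0.00361), and LOC_Os03g39610 the narrowest, 597, 578 and 612 and 739.6, 766 and 751 (0.34 ± 0.06, adjusted p = 0.0109). These last 2 were named after their values were seen. In all 6 genes the control libraries were above every PBT library. Other members were dominated by 1 library, such as LOC_Os01g41710, at 663, 656 and 583 FPKM in GAT and 1059.6, 0 and 1099 in PBT (adjusted p = 0.561).

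Rubisco followed the same order. *RBCS* at LOC_Os12g17600 differed by 0.43 ± 0.05 (adjusted p = 0.000722), and another *RBCS* locus, LOC_Os12g19470, was at 1257, 1178 and 1257 FPKM in GAT, 2008, 2044 and 1932 in PBT and 2535, 2479 and 2309 in the control (0.697 ± 0.06, adjusted p = 0.000295). Rubisco activase (LOC_Os11g47970) was at 4302, 4076 and 4154 FPKM in GAT and 4586, 4762 and 4801 in PBT and missed the limit (0.18 ± 0.05, adjusted p = 0.0586). Of 54 photosystem and electron transport entries 1 was a DEG (1.85%). Their median was 0.37, or 0.24 after quantile normalization and 0.44 after median scaling. The DEG count was 0 without control replicates 1, 2 or 3, GAT replicates 1 or 3 or PBT replicates 1 or 2, and 3 with single values of 0 treated as missing. In chlorophyll synthesis 1 of 17 was higher, 5.88% against 6.30% of all entries. It was protochlorophyllide reductase A (LOC_Os04g58200), the light-dependent step, at 4.15, 2.995 and 4.34 FPKM in GAT, 9.81, 8.68 and 8.39 in PBT and 43.7, 36.7 and 39.8 in the control (1.05 ± 0.17, adjusted p = 0.00672). PBT was far nearer to GAT than to the control in that gene, and the call was lost without GAT replicate 2 or PBT replicate 1, where the difference came under 1.

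Of 6 chlorophyll breakdown genes, which mark a senescing leaf, 1 was lower in PBT and none higher, 16.7% against 6.30% of all entries. *PAO* (LOC_Os03g05310), the oxygenase that opens the chlorophyll ring, was at 57.7, 106 and 61.01 FPKM in GAT, 35.8, 12.5 and 15.99 in PBT and 15.9, 18.6 and 19.7 in the control (-1.84 ± 0.38, adjusted p = 0.0181). The call was lost without GAT replicate 2 or PBT replicates 2 or 3 (adjusted p up to 0.0715). *NOL* (LOC_Os03g45194) and *RCCR1* (LOC_Os10g25030) did not overlap between the groups and did not pass (-0.76 ± 0.20 and -1.02 ± 0.41, adjusted p = 0.0547 and 0.177). *SGR* (LOC_Os09g36200), *NYC1* (LOC_Os01g12710) and *NYC3* (LOC_Os06g24730) overlapped (0.12 ± 0.31, 0.900 ± 0.52 and 0.79 ± 0.57, adjusted p = 0.88, 0.357 and 0.474). The summed level of the 6 genes was 237 to 344 FPKM in GAT, 215 to 247 in PBT and 139 to 227 in the control. The part of senescence in the photosynthesis values was not tested.

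**Figure D5:**
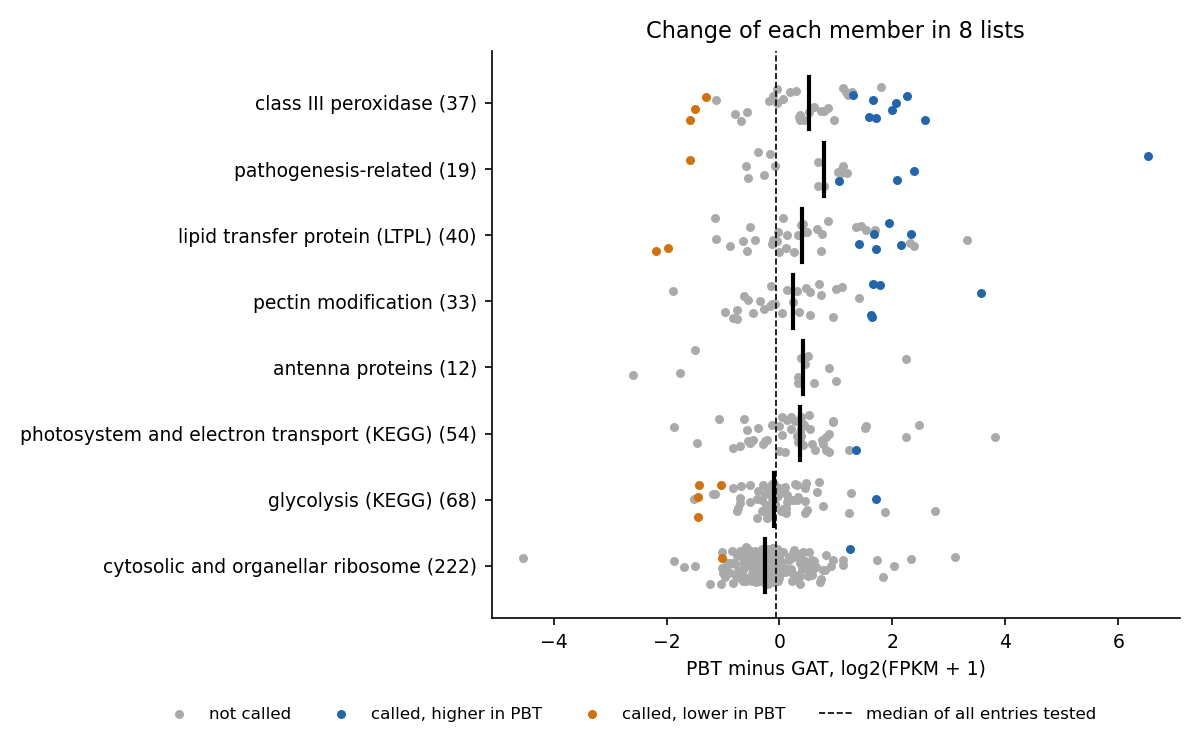
Difference between PBT and GAT of each tested member in 8 lists, in log2(FPKM + 1) (points are entries, thick bars the median of a list, the dashed line the median of all entries, -0.07). Peroxidase and pathogenesis-related members reach far to the right, 7 of the 12 antenna members lie between 0.33 and 0.89 and the others spread from -2.59 to 2.25, and the ribosomal median lies left of the dashed line.

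Of 5 genes of ethanolic fermentation 2 were lower in PBT and 0 higher. Pyruvate decarboxylase starts ethanol fermentation when oxygen is short, and *PDC2* (LOC_Os03g18220) was at 107, 110.4 and 109.8 FPKM in GAT, 38.2, 39.5 and 39.7 in PBT and 55.6, 59.6 and 48.6 in the control. PBT lay below the control and GAT above it in every library, and PBT was lower than GAT by -1.46 ± 0.11 (adjusted p = 0.000131). *PDC1* (LOC_Os05g39310) was at 3.95, 1.34 and 1.15 FPKM in GAT and 0, 0 and 0.261 in PBT and listed at 0 in the control (-1.43 ± 0.37, adjusted p = 0.0463), a call lost without control replicates 1, 2 or 3, GAT replicate 2 or PBT replicates 1, 2 or 3 (adjusted p up to 0.12). Alcohol dehydrogenase *ADH2* (LOC_Os11g10510) measured 88.8, 168 and 79.5 FPKM in GAT and 69.3, 70.8 and 76.02 in PBT and did not pass (-0.55 ± 0.25, adjusted p = 0.239), and *ADH1* was not analysed here. The aldehyde dehydrogenase *ALDH2b* (LOC_Os06g15990) was at 64.7, 57.05 and 52.3 FPKM in GAT and 90.6, 85.96 and 95.3 in PBT, under the fold limit (0.64 ± 0.11, adjusted p = 0.0101), and *ALDH2a* (LOC_Os02g49720) differed by 0.85 ± 0.30 (adjusted p = 0.13).

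In glycolysis 4 of 68 entries were lower and 1 higher in PBT, 7.35% against 6.30% of all entries. The median of -0.09 was near that of all entries. Fructose-bisphosphate aldolase (LOC_Os01g67860) was at 872, 898 and 924 FPKM in GAT, 331, 326 and 337 in PBT and 317, 311 and 334 in the control (-1.44 ± 0.07, adjusted p = 1.61e-05). PBT and the control overlapped and GAT stood apart. A dehydrogenase of the same pathway, LOC_Os03g08999, gave 98.96, 85.7 and 87.3 FPKM in GAT and 30.4, 33.3 and 35.1 in PBT (-1.43 ± 0.16, adjusted p = 0.000973), and a glyceraldehyde-3-phosphate dehydrogenase (LOC_Os02g38920) fell by 1.03 (adjusted p = 0.00755), a call lost without GAT replicate 3 or PBT replicate 2 and under median scaling. The lower count was 2 without PBT replicate 2. The higher entry is described as LTPL26 (LOC_Os12g02300), a lipid transfer protein and no glycolytic enzyme by that description.

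Of 97 entries of starch and sucrose metabolism 8 were higher and 2 lower in PBT, 10.3% against 6.30% of all entries. The median of the list was 0.08, or 0.16 after quantile normalization and 0.14 after median scaling. Both family 17 hydrolases and the pectinesterase named above are among the DEGs of the list. The higher count was 5 without PBT replicates 1 or 3 and the lower count 1 without GAT replicate 2 or PBT replicates 2 or 3. Starch breakdown for growth uses amylases. None of the 7 entries described as amylases was a DEG in the limma fit, with 1 higher and 1 lower at an unadjusted p under 0.05. Of all entries 23.3% had such a p. *OsAmy3D* (LOC_Os08g36910), the sugar-starvation amylase, has no description in the table and was at 22.6, 26.7 and 24.3 FPKM in GAT, 9.56, 8.79 and 12.98 in PBT and 1.202, 0.9897 and 0.867 in the control (-1.17 ± 0.19, adjusted p = 0.00651). PBT was lower than GAT, and both treatments exceeded the control. *CIPK15* (LOC_Os11g02240), a kinase that links oxygen deficiency to sugar starvation signalling in rice, measured 141, 142 and 132 FPKM in GAT, 87.5, 77.3 and 74.4 in PBT and 54.1, 49.1 and 51.7 in the control, the same order at a difference of -0.79 ± 0.11 (adjusted p = 0.00271) that stayed under the fold limit. *RSR1* (LOC_Os05g03040), a repressor of starch synthesis genes, was at 132, 88.6 and 90.4 FPKM in GAT and 31.1, 61.9 and 57.3 in PBT (-1.07 ± 0.27, adjusted p = 0.0412), a call lost without control replicates 1, 2 or 3, GAT replicates 1, 2 or 3 or PBT replicates 1 or 3 (adjusted p up to 0.123). A subunit of ADP-glucose pyrophosphorylase (LOC_Os09g12660), the committed enzyme of starch synthesis, rose by 1.505 ± 0.32 (adjusted p = 0.0206), a call lost without PBT replicates 1 or 3 (adjusted p up to 0.0758). The invertase *OsCyt-inv1* (LOC_Os02g34560) and the sucrose phosphatase *OsSPP* (LOC_Os01g27880) did not pass (-0.63 ± 0.26 and 0.27 ± 0.20, adjusted p = 0.182 and 0.475). In oxidative phosphorylation 1 entry was higher and 1 lower of 101, 1.98% against 6.30% of all entries.

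Transport of nitrogen compounds differed in both directions. Of 35 amino acid transporters 4 were higher and 5 lower in PBT, 25.7% against 6.30% of all entries. LOC_Os01g41420 was at 30.8, 35.3 and 32.6 FPKM in GAT, 277, 301 and 278 in PBT and 200.2, 195 and 198 in the control (3.08 ± 0.10, adjusted p = 2.19e-06). The opposite held for LOC_Os04g35540, at 25.8, 33.02 and 33.9 FPKM in GAT, 3.28, 6.92 and 3.55 in PBT and 2.59, 2.86 and 4.77 in the control (-2.56 ± 0.29, adjusted p = 0.00113), and LOC_Os02g09810 was lower in PBT by -1.995 ± 0.20 (adjusted p = 0.000561). The higher count was 2 without PBT replicate 2, and the lower count 3 without GAT replicates 2 or 3 or PBT replicates 1 or 2. Transporters of the peptide and nitrate family gave 2 higher and 0 lower of 34, 5.88% against 6.30% of all entries. LOC_Os02g46460 was at 3.87, 2.57 and 2.45 FPKM in GAT and 16.9, 21.6 and 17.1 in PBT (2.31 ± 0.27, adjusted p = 0.00134). LOC_Os03g48180 was higher by 1.58 ± 0.15 (adjusted p = 0.000423). None of 17 aquaporins passed in the limma fit, although 6 were higher and 1 lower at an unadjusted p under 0.05. Of all 22946 entries 2285 were higher and 3054 lower at that level. Sugar exporters of the SWEET family gave no DEG among 5, with 1 higher and 0 lower at that level.

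Transcription factors were called above the 6.30% of all entries in several families. AP2/ERF genes, which include the DREB and ethylene response factors, gave 8 higher and 2 lower of 54, a median of 0.29. The dehydration-responsive element-binding gene LOC_Os09g35030 was at 211, 202 and 186 FPKM in GAT, 484, 519.9 and 499 in PBT and 288, 278 and 263 in the control (1.33 ± 0.09, adjusted p = 5.42e-05). A second gene of that kind, LOC_Os01g73770, was at 2.95, 8.86 and 5.72 FPKM in GAT, 29.8, 28.97 and 28.2 in PBT and 0.371, 0 and 0.728 in the control (2.23 ± 0.34, adjusted p = 0.00484), and the AP2 gene LOC_Os02g52670 at 8.38, 17.9 and 11.3, 51.1, 47.6 and 60.8 and 5.08, 4.53 and 2.57 (2.05 ± 0.30, adjusted p = 0.00363). In all 3, PBT exceeded every GAT and control library. The count of higher AP2/ERF genes was 6 to 8 with 1 library left out, and that of lower ones 1 without control replicates 1 or 3, GAT replicate 2 or PBT replicate 2 and 0 without GAT replicate 3 or PBT replicates 1 or 3.

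Many WRKY genes are regulators of defence and senescence. The 40 tested entries described as WRKY gave 2 higher and 3 lower, and genes lacking that description were not counted. The higher ones were 0 without control replicates 2 or 3 or PBT replicate 2. They were 1 without GAT replicates 1 or 2 or PBT replicate 1. WRKY55 (LOC_Os03g20550) was at 15.5, 16.1 and 17.9 FPKM in GAT, 4.63, 3.88 and 3.38 in PBT and 6.02, 5.03 and 5.45 in the control (-1.82 ± 0.17, adjusted p = 0.000393), and WRKY57 (LOC_Os12g01180) fell by 2.23 (adjusted p = 0.00249). WRKY28 (LOC_Os06g44010) was at 12.6, 23.6 and 5.02 FPKM in GAT and 51.5, 53.3 and 49.5 in PBT (2.06 ± 0.46, adjusted p = 0.0282), a call lost without control replicates 2 or 3, GAT replicate 1 or PBT replicates 1, 2 or 3 (adjusted p up to 0.0864). NAC genes gave 1 higher and 3 lower of 28, with LOC_Os11g03300 at 14.9, 14.3 and 15.1 FPKM in GAT and 3.901, 1.78 and 0.734 in PBT (-2.46 ± 0.39, adjusted p = 0.0057). MYB genes were split 4 to 4 of 60, the higher ones 2 without GAT replicate 3 or PBT replicate 3. LOC_Os01g64360 was the most abundant MYB gene among the DEGs, at 38.7, 49.1 and 46.7 FPKM in GAT, 225, 208 and 184 in PBT and 82.2, 77.97 and 64.3 in the control (2.18 ± 0.15, adjusted p = 6.72e-05). The 28 basic helix-loop-helix genes tested included 2 higher and 2 lower, the higher ones 1 without control replicate 2, GAT replicates 1, 2 or 3 or PBT replicates 2 or 3 and the lower ones 1 without PBT replicate 2. One of each stood out, LOC_Os01g39330 at 4.11, 2.48 and 2.1996 FPKM in GAT and 26.99, 23.5 and 28.5 in PBT (2.82 ± 0.21, adjusted p = 0.000112) and LOC_Os01g67480 at 339, 347 and 339.8 and 99.5, 102 and 113 (-1.701 ± 0.10, adjusted p = 4.05e-05). *OsbHLH1* (LOC_Os07g43530) overlapped between the groups (-0.42 ± 0.31, adjusted p = 0.482). The late embryogenesis abundant gene LOC_Os01g21250, of a family that protects dehydrating cells, rose from 40.8, 34.5 and 34.5 FPKM in GAT to 104, 111 and 124 in PBT (1.61 ± 0.14, adjusted p = 0.000263), the 1 DEG of 11 such genes.

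Genes of growth and division gave few DEGs. Ribosomal protein genes had 1 higher and 1 lower DEG among 222. Every PBT library was below every GAT library in 72 of them, against 17.4% of all entries. Every PBT library was above in 8, against 12.6% of all entries. Their median difference was -0.26, and their summed level was 11861 to 12769 FPKM in GAT, 10031 to 10510 in PBT and 12592 to 13548 in the control. The PBT libraries were thus lowest in that sum, by a margin under the fold limit for single genes. Core histones, abundant in dividing cells, gave 1 higher and 1 lower of 35, 5.71% against 6.30% of all entries. Cell cycle genes gave 0 higher and 1 lower of 36 (2.78%). The core histone gene LOC_Os09g26340 was at 3.11, 6.52 and 6.56 FPKM in GAT and listed at 0 in all PBT and control libraries (adjusted p = 0.00119). The tubulin/FtsZ gene LOC_Os03g45920, outside the histone and cell cycle lists, was higher in PBT, at 6.91, 6.29 and 4.74 FPKM in GAT and 17.7, 16.02 and 15.3 in PBT (1.32 ± 0.19, adjusted p = 0.00375). Under the GO term for microtubule 3 entries were higher and 2 lower of 55, 9.09% against 6.30% of all entries. Chaperones gave 0 higher and 2 lower of 67, pentatricopeptide genes 1 and 2 of 98, and entries described as transposable elements 4 and 1 of 99, all under the 6.30% of all entries. With 1 library left out, list counts of 0 or 1 in these groups ranged from 0 to 3. The higher transposable elements numbered 2 without control replicates 1 or 2 or PBT replicates 1 or 2, the lower chaperones 0 without control replicate 1, GAT replicate 2 or PBT replicate 2 and 1 without control replicate 3 or PBT replicates 1 or 3, and the lower pentatricopeptide genes 1 without control replicates 1, 2 or 3, GAT replicates 1, 2 or 3 or PBT replicates 1 or 2.

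By KEGG pathway, the largest shares of DEGs among pathways with at least 10 entries tested were in methane metabolism (8 higher and 3 lower of 47, 23.4%) and phenylalanine metabolism (10 and 4 of 64, 21.9%). Methane metabolism in this annotation holds peroxidases, and all 11 of its DEGs were class III peroxidases, as were 11 of the 14 in phenylalanine metabolism. In sulfur metabolism 3 of 14 entries rose and none fell (21.4%), and these were enzymes of sulfate activation and cysteine synthesis. Adenylyl-sulfate kinase (LOC_Os11g41650) was at 3.27, 1.06 and 1.17 FPKM in GAT, 11.8, 14.5 and 10.05 in PBT and 12.1, 12.1 and 5.72 in the control (2.28 ± 0.36, adjusted p = 0.006), and cysteine synthase (LOC_Os12g42980) at 39.9, 35.1 and 72.9, 133, 134 and 136 and 104, 103 and 67.7 (1.503 ± 0.27, adjusted p = 0.0109). PBT was separate from GAT in both, while serine acetyltransferase (LOC_Os03g10050) rose by 1.22 ± 0.28 (adjusted p = 0.0298), a call lost without control replicates 2 or 3, GAT replicate 2 or PBT replicates 1, 2 or 3 (adjusted p up to 0.0977). Pathways named after animal processes, apoptosis, leishmaniasis and Toll-like receptor signalling, reached 17.4%, 17.3% and 15.9%, and receptor-like and other protein kinases made up most of their DEGs. Carotenoid biosynthesis had 3 DEGs of 15 and steroid and zeatin biosynthesis 2 of 11 each (18.2%), and phenylpropanoid biosynthesis reached 16.8%. No enrichment test was made, and KEGG terms cover 2421 of the entries tested, of which 5.95% were DEGs. A description was given for 9672 entries tested and GO terms for 6307, with 6.97% and 7.12% called, so the lists cover the annotated part of the table only.

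Of 24 tested loci that the study names, 5 were higher and 6 lower in PBT, and since they were chosen on these libraries their count is no independent evidence. *RGA1* (LOC_Os05g26890), which the study used as a marker of the GA response, is not among the 24 and was not analysed here. Those of the 24 not described so far are LOC_Os01g61080, which measured 8.53, 8.45 and 6.01 FPKM in GAT, 32.6, 35.7 and 35.03 in PBT and 94.9, 96.3 and 90.03 in the control (2.05 ± 0.15, adjusted p = 0.00011), and a phytosulfokine receptor precursor (LOC_Os02g05980). The receptor was listed at 0 in all 3 GAT libraries, at 0, 0 and 1.43 FPKM in PBT and at 1.86, 2.15 and 1.51 in the control and did not pass (adjusted p = 0.568).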

How the data were processed

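Leaf RNA libraries of control, GAT and PBT seedlings, 3 of each and 9 in all, were grouped by the GEO labels. The authors removed low-quality reads, used Tophat to map the rest on the rice pseudomolecules and measured abundance with Cufflinks, and they deposited FPKM per gene and library. The submitters' processing notes name Bowtie 0.12.2. Values from 4 library files repeat another library, so the series table alone was used, with columns matched by the labels. FPKM hold no fragment count, so the depth behind a gene is not known here and precision rests on 3 libraries.

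Values were tested as log2(FPKM + 1) after a filter at a mean of 0.5 FPKM. limma 3.58.1 (R 4.3.3) fitted the 3 group means to all 9 libraries with a variance trend, and p of PBT minus GAT was adjusted over the 22946 entries after Benjamini and Hochberg. The limits for a DEG were 0.05 on adjusted p and 1 on the size of the log2 difference. The fit was tested on simulated data. Lists were made from descriptions, KEGG terms or locus names. Where a locus name belongs to several entries (8416 entries share one), 1 of them bears that name here. It was the entry whose transcripts carry the locus, or else the one with the highest mean. Lists made from descriptions or KEGG terms hold every matching entry, so a locus can count more than once. Named genes are the 12 largest rises and 12 largest falls with a described locus and separate groups, up to 3 called members per list and direction, every member of the locus lists, loci that the study names, DEGs of the 10 KEGG pathways with the highest share called, and the largest changes without a locus name. The comparison, lists, named-gene rule and limits were chosen with earlier results of these data known. Alternatives changed the pseudocount, filter, scaling, libraries, treatment of 0, shared names and limits.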

Additional observations from a re-analysis of the deposited data

How the results depend on the processing

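The PBT/GAT count of 1446 DEGs moved by more than 1.5 times under 2 alternatives, to 933 with a filter at 5 FPKM, which tests fewer entries, and to 749 with an adjusted p under 0.01. It stayed within 1.5 times under the others. Apart from the fits with 1 library left out, these ran from 1099 without a filter to 2149 without the fold limit, with 2003 where single values of 0 were treated as missing. With 1 library left out the count ran from 1063 to 1386. Quantile normalization gave 841 higher and 564 lower, and median scaling 860 and 547. The median of all entries, -0.07, became -0.02 and -0.01. No call of a named entry reversed in direction under any alternative. Of 210 called entries in the lists or named, 130 were called in all 9 fits with 1 library left out, 34 in 5 to 8 and 46 in 1 to 4. With the replicate number as a block the count was 1130. The deviations of the PBT and GAT libraries from their group means correlated between -0.023 and 0.018, and no GAT library correlated best with its own number. Deviations from a mean of 3 libraries constrain each other, so these correlations cannot decide whether the numbers mark a block. The study describes a randomized complete block design, and whether the replicate numbers follow its blocks is not known here. What a call lost with the block means was therefore not decided. The main limits are 3 libraries per group, FPKM without fragment counts, 0 values that may be failed estimates, and descriptions for only 9672 of the entries tested.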

Other observations

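Entries without a rice locus name, assembled from the reads and numbered by the assembler, made up 3154 of the entries tested, and 5.71% of them were DEGs, against 6.40% of those with a locus name. MSTRG.672 was the most abundant of the leading ones, at 15.4, 10.1 and 14.3 FPKM in GAT, 209, 163 and 182 in PBT and 257, 287 and 287 in the control (3.72 ± 0.17, adjusted p = 9.56e-06), so that GAT alone was low. MSTRG.33619 was listed at 0 in all 3 GAT libraries and at 11.9, 9.15 and 13.98 FPKM in PBT (adjusted p = 2.96e-05), and MSTRG.20544 rose by 3.77 ± 0.64 (adjusted p = 0.00835). Among those lower in PBT, MSTRG.33848 was at 68.1, 88.9 and 70.4 FPKM in GAT, 1.81, 5.21 and 0.387 in PBT and 1.76, 3.03 and 3.403 in the control (-4.72 ± 0.48, adjusted p = 0.000622). MSTRG.28891 and MSTRG.20492 stayed under 2 FPKM in all PBT and control libraries and reached 20.1, 25.2 and 20.02 FPKM and 22.5, 25.3 and 22.5 FPKM in GAT (adjusted p = 0.000146 and 2.58e-05). What these transcripts encode is not given in the table.

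Single values of 0 also bear on the calls. Of the 314 entries with a 0 in 1 GAT or PBT library beside more than 10 FPKM in both others of its group, 1 was a DEG. *EATB* and *OsNCED3* are among the loci with such a value.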
